A study of Homo sapiens with 6 samples.

Results

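Protein phosphatase 2A (PP2A) is assembled from a scaffold subunit, a catalytic subunit and 1 of many regulatory subunits, and the genes described here are 10 of its subunits: the catalytic PPP2CA and PPP2CB, the scaffolds PPP2R1A and PPP2R1B, the B55 subunit PPP2R2A, the B56 subunits PPP2R5A, PPP2R5C, PPP2R5D and PPP2R5E, and the B″ subunit PPP2R3C. They were chosen by gene symbol, with earlier results of these data known. All 10 were present in the deposited table among 22933 gene symbols, and all 10 were among the 13004 symbols counted as expressed, that is, with a value above 0 in both groups that reached 1 FPKM (fragments per length of transcript and size of library) or more in either. The samples were 6 cultures of PC-3, an established line from a bone metastasis of prostate adenocarcinoma. All carried the Tet-On transactivator rtTA2 and received 300 ng/ml doxycycline (Dox) for 4 hours. The 3 tdTom samples carried the tdTomato vector alone, and the 3 TTP-tdTom samples carried the same vector with a Dox-driven insert of tristetraprolin (TTP). Both kinds of cell had been sorted for tdTomato by flow cytometry after infection.

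PP2A removes phosphate from serine and threonine residues. The scaffold holds the catalytic subunit, and the regulatory subunit directs the enzyme to its substrates, so that the makeup of the subunits sets what is dephosphorylated. TTP, an RNA-binding protein that binds AU-rich elements and speeds the decay of mRNA, is itself a known PP2A substrate: the p38-MK2 kinase pathway phosphorylates TTP and restrains it, and PP2A reverses this. The comparison asked how the mRNAs of the PP2A subunits stood in cells with and without the TTP insert.

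The table gave 1 FPKM value per group and gene locus, the authors' value over the 3 samples of the group. It therefore showed neither the spread between replicates nor the depth of each library, no test between the groups was run, and each fold change below is a description of these libraries. ZFP36, which encodes TTP, had an FPKM of 5.56 in tdTom cells and 5.54 in the group labelled TTP-tdTom at its locus on chromosome 19 of GRCh37 (39897487 to 39900052), so the label was not visible there. Whether fragments of the insert were counted at that locus was not analysed here, and every direction below rests on the labels. Of 5 epithelial markers, KRT18, KRT19, KRT8 and EPCAM were between 15.1 and 98.2 FPKM in both groups, while CDH1 was at most 0.390. The markers of leukocytes and of endothelium, 3 of each, were all below 1 FPKM in both groups. Of the 4 fibroblast markers the highest was COL1A1, at 4.34 in tdTom cells and 4.56 in TTP-tdTom cells. COL1A2 stood at 0 in tdTom cells and 1.38 in TTP-tdTom cells, and DCN and PDGFRA were below 1 FPKM in both groups.

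Of the 10 genes, the catalytic PPP2CB had the largest fold change. PPP2CB, the β isoform, had an FPKM of 13.5 in tdTom cells and 5.57 in TTP-tdTom cells, so that 41.4% was left and the level was 2.42-fold lower (log2 fold change -1.27). PPP2CA, the α isoform that supplied most catalytic mRNA, had an FPKM of 50.4 and 37.4, a log2 fold change of -0.43. PPP2CB thus stood much further below its control level than its paralog. In bulk RNA, fewer cells with a transcript and less of it per cell cannot be told apart. Positions are those of the table's loci in GRCh37, whose span can be wider than the gene and hold other genes. The locus of PPP2CB spans chromosome 8 from 30643126 to 30670352, and that of PPP2CA, with MIR3661 given the same span, chromosome 5 from 133530121 to 133562349.

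Of the scaffolds, PPP2R1A, the α isoform with the higher level, had an FPKM of 37.9 in tdTom cells and 33.6 in TTP-tdTom cells. Its log2 fold change of -0.17 was nearer to 0 than the -0.44 of PPP2R1B, the β isoform, which stood at 11.5 and 8.42 FPKM. In both pairs the paralog with the lower level was the one further below its control level. The locus of PPP2R1A spans chromosome 19 from 52691746 to 52735077. That of PPP2R1B has a span on chromosome 11 from 111473170 to 111638381, which the table gives to SIK2 as well.

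The B56 subunits had unlike values. PPP2R5E, the ε isoform, had the highest level of all 10 genes in tdTom cells, 57.3 FPKM, against 34.6 in TTP-tdTom cells (log2 fold change -0.73, 60.3% left). PPP2R5A, the α isoform known for its part in the turnover of MYC, stood at 16.9 and 13.8 FPKM (-0.30). PPP2R5C, the γ isoform known to act on p53, stood at 27.1 and 24.8 (-0.13). PPP2R5D, the δ isoform, was the only 1 of the 10 with a higher value in TTP-tdTom cells, 6.09 FPKM against 5.89 (0.05). The B56 genes therefore ran from a level 1.66-fold lower to a level that was nearly the same. The locus of PPP2R5E spans chromosome 14 from 63838046 to 64010501 and that of PPP2R5C the same chromosome from 102228078 to 102394328. That of PPP2R5A spans chromosome 1 from 212458879 to 212535205, with SNORA16B given the same span. That of PPP2R5D has a span on chromosome 6 from 42952237 to 42997337, which the table also gives to MEA1, KLHDC3 and RRP36.

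The remaining regulatory subunits showed small differences. PPP2R2A, the B55α subunit that takes part in mitotic exit, had an FPKM of 10.4 in tdTom cells and 8.68 in TTP-tdTom cells (log2 fold change -0.26). PPP2R3C, also known as G5PR, had one of 12.2 and 10.5 (-0.21). The locus of PPP2R2A spans chromosome 8 from 26149007 to 26230195. That of PPP2R3C has a span on chromosome 14 from 35554648 to 35747212, shared with KIAA0391.

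**Figure D1:**
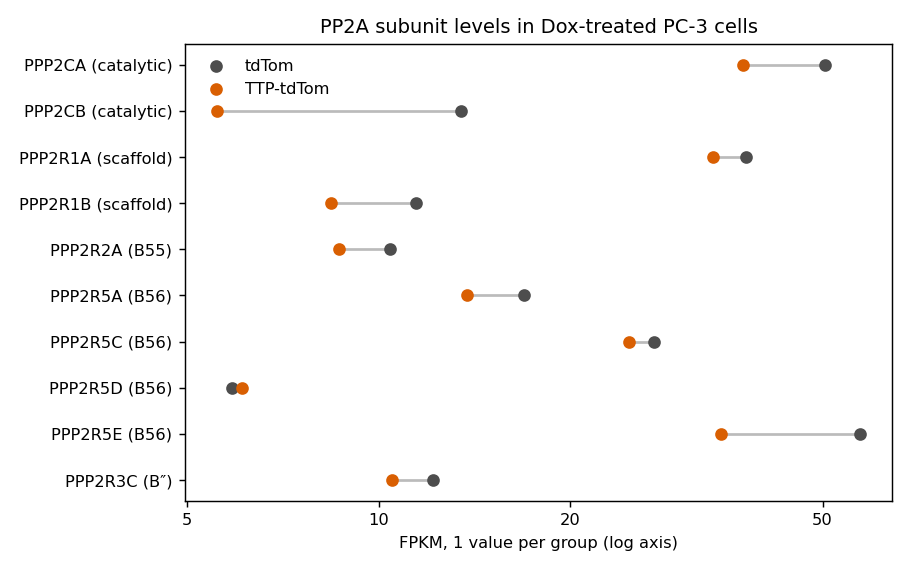
FPKM of the 10 PP2A subunits on a log axis, with 1 value for the tdTom group (grey) and 1 for the TTP-tdTom group (orange) and a line joining them. The line is longest for PPP2CB (13.5 to 5.57), and PPP2R5D is the gene whose TTP-tdTom value lies to the right (5.89 to 6.09).

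Since FPKM is scaled to length, the levels can be ordered between genes. In the tdTom group the order was PPP2R5E, PPP2CA, PPP2R1A, PPP2R5C, PPP2R5A, PPP2CB, PPP2R3C, PPP2R1B, PPP2R2A and PPP2R5D, from 57.3 to 5.89 FPKM. In the TTP-tdTom group PPP2CA led with 37.4, and PPP2R5E (34.6) and PPP2R1A (33.6) followed closely. PPP2CB went from the sixth place to the last, at 5.57 below PPP2R5D at 6.09. Without a spread between samples, it cannot be said which neighbours in these orders differ. In the tdTom group PPP2R5E was above 89.8% of the expressed symbols and PPP2R5D above 39.9%, so the subunits covered the middle and upper part of the range.

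Of the 10 members, 9 were lower in TTP-tdTom cells, and 78.5% of all expressed symbols were lower. By at least 1.5-fold, 2 members were lower (PPP2CB and PPP2R5E), where 22.8% of all expressed symbols were, and 0 were higher, where 3.90% were. The share of members past the threshold was therefore close to that of all genes. By at least 2-fold only PPP2CB was lower, against 8.65% of all expressed symbols. The median log2 fold change was -0.28 over the members and -0.23 over the 13004 symbols. With that -0.23 taken as the reference, 6 members lay below it and 4 (PPP2R1A, PPP2R5C, PPP2R5D and PPP2R3C) above it. Relative to it PPP2CB stood at -1.04, PPP2R5E at -0.49 and PPP2R5D at 0.28, and only PPP2CB was lower by at least 1.5-fold, as 13.6% of the expressed symbols were. PPP2CB ranked at percentile 3.79 of the log2 fold changes of all expressed symbols, counted from the lowest. PPP2R5E ranked at 16.9, PPP2R1B at 30.7 and PPP2CA at 31.9, and PPP2R5D ranked highest of the members, at 82.1.

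**Figure D2:**
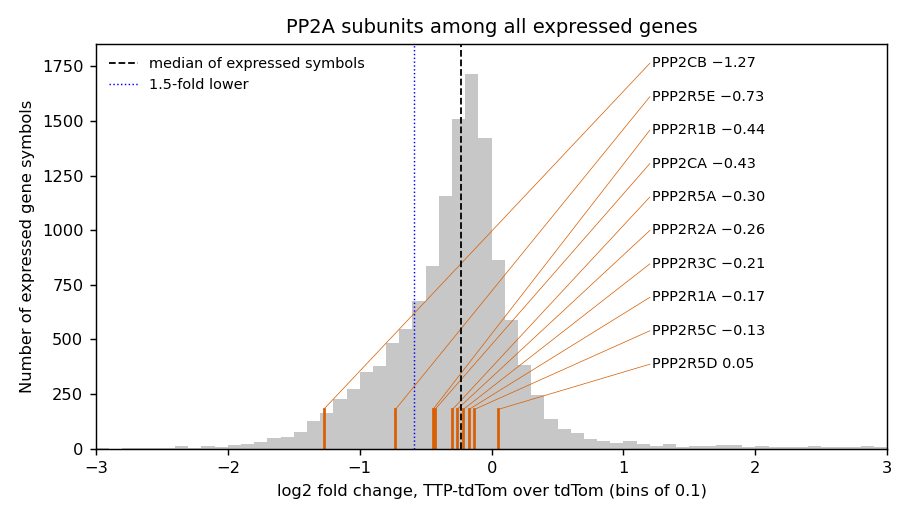
Histogram of the log2 fold change (TTP-tdTom over tdTom) of 13004 expressed gene symbols in bins of 0.1, with each PP2A subunit as an orange tick and its value; 94 symbols lie outside the plotted range. PPP2CB (-1.27) and PPP2R5E (-0.73) lie left of the dotted line at 1.5-fold, and the other members lie around the dashed median of -0.23.

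The makeup of each subunit class does not depend on how a group as a whole is scaled. PPP2CA made up 78.9% of the catalytic FPKM in tdTom cells and 87.0% in TTP-tdTom cells, and PPP2CB the remaining 21.1% and 13.0%. The ratio of PPP2CA to PPP2CB was accordingly 3.74 and 6.72. Among the scaffolds PPP2R1A made up 76.8% and 80.0%, a smaller difference. Among the 4 B56 genes described here PPP2R5E made up 53.5% in tdTom cells and 43.7% in TTP-tdTom cells. PPP2R5B, a further B56 gene named here for its class, stood at 2.68 and 1.87 FPKM and is not in these sums. PPP2R5C, next in level, made up 25.3% and 31.3%, and the ratio of PPP2R5E to PPP2R5C was 2.12 and 1.40. PPP2R5A made up 15.8% and 17.4%, and PPP2R5D 5.49% and 7.69%. Summed over the class, 67.3% of the catalytic FPKM of the tdTom group was left in TTP-tdTom cells, against 85.2% for the scaffolds and 73.9% for the 4 B56 genes. The ratio of catalytic to scaffold FPKM was 1.29 in tdTom cells and 1.02 in TTP-tdTom cells.

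**Figure D3:**
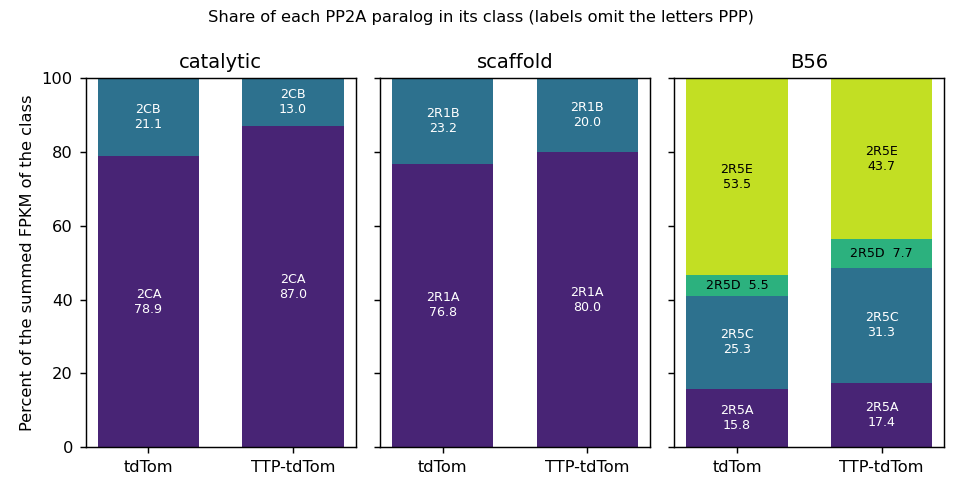
Share of each paralog in the summed FPKM of its class, in percent, with 1 bar per group for the catalytic and scaffold genes and the B56 genes described here (PPP2R5B is left out). PPP2CB goes from 21.1% to 13.0% of the catalytic FPKM and PPP2R5E from 53.5% to 43.7% of the B56 FPKM.

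TTP is known to bind the heptamer UAUUUAU, written here as TATTTAT in the DNA alphabet, and for each member the 3′UTR with the most bases among its GENCODE release 29 (GRCh38) transcripts was searched for these letters on the transcribed strand, overlapping copies included. PPP2R5E held 4 copies in 4652 bases of 3′UTR, but GENCODE pairs none of its transcripts with the RefSeq record that names its locus in the table, so this 3′UTR rests on GENCODE alone. PPP2CB held 1 copy in 625 bases, PPP2R5C 1 in 2717 and PPP2R5D 1 in 1056. The other 6 members held 0. For PPP2R3C the 3′UTR searched had 420 bases, against 123 in the transcript paired with the RefSeq record of its locus, which also held 0. Its pentamer count and GC content below are those of the transcript with 420 bases. Of 11852 expressed symbols with an annotated 3′UTR, 36.0% held at least 1 copy and 3.54% held 4 or more. The copies are shown because they are the candidate binding letters in these mRNAs, and the heptamer is in capitals. Each line gives the gene, a colon and the sequence, read 5′ to 3′ along the mRNA.
PPP2R5E: cgggagttcctTATTTATcactagcagag
PPP2R5E: gctgttaaatgTATTTATagtaaaggaag
PPP2R5E: tttttaatatgTATTTATaaagtattcca
PPP2R5E: cattttagacaTATTTATagaatcaatta
PPP2R5C: gtattttgactTATTTATcctgcttgaaa
PPP2R5D: ctgccaacaccTATTTATttccttgtttg

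The copies of PPP2R5E began at bases 321, 407, 991 and 2427 of its 3′UTR, that of PPP2R5C at base 1286 and that of PPP2R5D at base 821. In GRCh38 the printed windows of PPP2R5E lie on the minus strand of chromosome 14, at 63375671 to 63375699, 63375585 to 63375613, 63375001 to 63375029 and 63373565 to 63373593. That of PPP2R5C lies on the plus strand of chromosome 14 at 101926547 to 101926575, and that of PPP2R5D on the plus strand of chromosome 6 at 43012096 to 43012124. The copy of PPP2CB is not printed. The genes with the largest differences, PPP2CB (log2 fold change -1.27) and PPP2R5E (-0.73), both held the heptamer, but so did PPP2R5C (-0.13) and PPP2R5D (0.05). PPP2CA (-0.43) and PPP2R1B (-0.44) held 0 copies, in 3438 and 3715 bases. Among the 11852 expressed symbols with a 3′UTR the median log2 fold change was -0.17 with 0 copies, -0.36 with 1 copy and -0.53 with 2. It was -0.63 with 3 copies, -0.59 with 4 and -0.63 with 5 or more. The 3′UTRs with more copies were also longer and their transcripts poorer in GC, with a median of 914 bases and 51.5% GC at 0 copies and of 4550 bases and 40.4% GC at 4. The pentamer ATTTA, of which each heptamer holds 1, was found in the 3′UTR of all 10 members, 14 times in PPP2R5E, 9 times in PPP2CA and in PPP2R2A, 6 times in PPP2CB and between 1 and 4 times in the others, and in 74.0% of all expressed symbols with a 3′UTR. A match shows letters and not a bound site.

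The fold change of all genes moved with the GC content of the transcript. In the decile of expressed symbols poorest in GC (28.6% to 38.3%) the median log2 fold change was -0.75 and 62.6% were lower by at least 1.5-fold, whereas in the richest decile (61.5% to 75.3%) these values were -0.09 and 3.96%. PPP2CB, with 48.0% GC, was in a decile with a median of -0.19, and only 1.77% of that decile had a log2 fold change as low or lower. PPP2R5E, with 38.8% GC, was in a decile with a median of -0.57 and stood at percentile 37.4 of it. PPP2CA was almost at the median of its decile (-0.43 against -0.41), as were PPP2R1A (-0.17 against -0.15) and PPP2R5A (-0.30 against -0.25). PPP2R2A and PPP2R3C, in the same GC-poor decile as PPP2R5E, stood at percentiles 77.9 and 81.9, and PPP2R5C stood at 78.9 of its own. In all, 6 members lay below the median of their decile and 4 above it. These GC contents are those of whole transcripts. In the 3′UTR alone, A and T made up 68.6% in PPP2CB and 65.6% in PPP2R5E. The members ran from 44.7% in PPP2R5D to 71.0% in PPP2R3C, and this content was not ranked among all symbols. The part of GC content in the differences between these genes was not tested. Among symbols of like level, PPP2CB was again apart, with -1.27 against a median of -0.29 in its decile of mean FPKM, and PPP2R5E stood at -0.73 against -0.27.

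**Figure D4:**
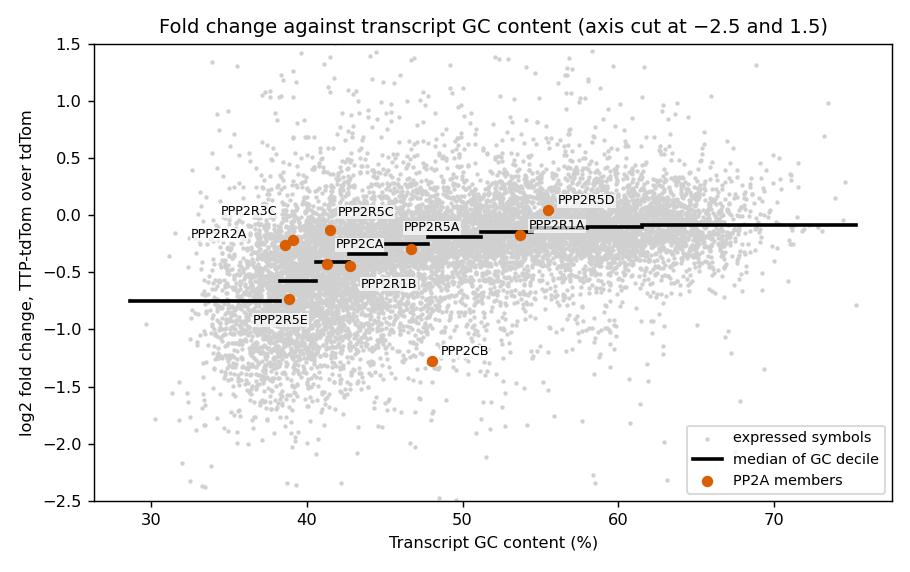
log2 fold change (TTP-tdTom over tdTom) against the GC content of the transcript in percent for 11852 expressed symbols (grey; 163 lie outside the plotted range), with the median of each GC decile as a black line and the PP2A subunits in orange. PPP2CB (48.0% GC, -1.27) lies far below the line of its decile (-0.19), while PPP2CA and PPP2R1A lie on theirs.

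How reads were assigned between paralogs was not tested. The coding sequences of PPP2CA and PPP2CB, both of 930 bases, were identical at 83.2% of positions, and the longest run of identical bases shared by the 2 transcripts was 26 bases. Within the scaffold and B56 classes it was 32 bases at most (PPP2R5A and PPP2R5E). The reads were 75 bases long. Pseudogenes were not compared. PPP2R5A and PPP2R1A each stood at a further locus of the table. That of PPP2R5A had an FPKM of 2.15 in tdTom cells and 1.11 in TTP-tdTom cells, which is 12.7% of the main locus in tdTom cells, and that of PPP2R1A had one of 0.877 and 0.831. The libraries were strand-specific, but whether the counting used strand is not given in the sources used here. No other locus of the table overlapped the spans of PPP2CB and PPP2R5E.

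The rest of the PP2A system was read from lists of symbols, also written with earlier results of these data known. Of 9 further PP2A subunits, 7 were expressed, and all 7 were lower in TTP-tdTom cells, where 78.5% of all expressed symbols were, with a median log2 fold change of -0.42. Lower by at least 1.5-fold were 2 of the 7 (22.8% of all expressed symbols), both striatins, the B‴ subunits that anchor the STRIPAK kinase and phosphatase complex. STRN stood at 10.4 and 4.10 FPKM (-1.34), and STRN3, the highest of the list, at 23.1 and 10.3 (-1.17). Their paralog STRN4 stood at 13.5 and 13.3 (-0.02). The transcripts of STRN and STRN3 had 37.8% and 40.7% GC, and both genes were below the medians of their GC deciles, by -0.59 and -0.76. STRN4 had 63.2% GC. Of the 7 genes, 5 were below the medians of their GC deciles. PPP2R2B and PPP2R2C were not counted as expressed. No expressed gene of the list was higher.

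Of 16 regulators and inhibitors of PP2A, all were expressed, 5 were lower by at least 1.5-fold (31.3%, against 22.8% of all expressed symbols) and 0 higher (against 3.90%), with a median log2 fold change of -0.35. ARPP19, which once phosphorylated by MASTL inhibits PP2A with B55 in mitosis, had the lowest fold change, with an FPKM of 141.4 in tdTom cells and 51.7 in TTP-tdTom cells (-1.45). Its relative ENSA stood at 63.2 and 55.7 (-0.18). SET, a PP2A inhibitor with the highest level of the list, stood at 262.5 and 232.7 (-0.17). KIAA1524, also called CIP2A, an inhibitor that protects MYC from PP2A, stood at 25.0 and 13.2 (-0.92), in a GC decile with a median of -0.75. IGBP1, the α4 protein that binds free catalytic subunit, differed least, with 27.3 and 27.1 (-0.01). LCMT1, the methyltransferase that acts on the tail of the catalytic subunit, had the highest fold change, with 11.5 and 12.5 (0.12). The other genes past the threshold were FAM122B (-1.05), TIPRL (-0.70) and FAM122A (-0.63). These, ENSA and KIAA1524 were named after their values were seen. With the median of all expressed symbols as the reference, 3 of the 16 were lower by at least 1.5-fold, where 13.6% of all expressed symbols were, and TIPRL and FAM122A were no longer among them. Of the 16 genes, 6 were below the medians of their GC deciles. ARPP19 and TIPRL were in the GC-poorest decile with KIAA1524, ARPP19 below its median by -0.70 and TIPRL above it by 0.05. FAM122B and FAM122A were below the medians of their deciles, by -0.71 and -0.22.

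Of 13 STRIPAK partners, all expressed, 4 were lower by at least 1.5-fold (30.8%, against 22.8% of all expressed symbols) and 0 higher (against 3.90%), with a median of -0.31. SIKE1, a STRIPAK adaptor, had the lowest fold change (16.1 and 5.50 FPKM, -1.55). The locus of MOB4 had the highest FPKM, 261.2 and 207.7 (-0.33), but carries 3 gene symbols, so this is not the level of MOB4 alone. The locus of CTTNBP2NL, which carries 2 symbols, differed least (11.7 and 11.9, 0.02), and TRAF3IP3 had the highest fold change (2.70 and 2.83, 0.07). The other genes past the threshold were MST4 (-1.54), PDCD10 (-1.29) and SLMAP (-0.89), named after their values were seen. SIKE1, MST4 and PDCD10 were in the GC-poorest decile, where 62.6% of symbols were lower by at least 1.5-fold, and SLMAP was in the next, where 49.1% were. SIKE1 was below the median of its decile by -0.80, MST4 by -0.79, PDCD10 by -0.54 and SLMAP by -0.31. Of the 13 genes, 7 were below the medians of their GC deciles.

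Related phosphatases were read in the same way. Of 12 expressed PP4 and PP6 subunits, 5 were lower by at least 1.5-fold (41.7%, against 22.8% of all expressed symbols) and 0 higher (against 3.90%), with a median of -0.32. PPP6R3, a PP6 regulatory subunit, had both the highest level and the lowest fold change, with 213.8 FPKM in tdTom cells and 93.6 in TTP-tdTom cells (-1.19). PPP6R2, its paralog, stood at 6.73 and 6.61 (-0.02), and PPP4C, the PP4 catalytic subunit, at 2.94 and 3.31 (0.17). Of the 12 genes, 6 were below the medians of their GC deciles. Of 15 expressed subunits of PP1, PP2B and PP5, 5 were lower by at least 1.5-fold (33.3%, against 22.8%) and 0 higher (against 3.90%), with a median of -0.44. PPP3CA, a catalytic subunit of calcineurin (PP2B), had the lowest fold change, with 20.8 and 10.3 (-1.02). PPP1CC, a PP1 catalytic subunit, had the highest level, 60.0 and 41.5 (-0.53). PPP1R8, a nuclear PP1 inhibitor, differed least, with 12.0 and 12.4 (0.05), and PPP1R10, another nuclear PP1 partner, had the highest fold change, with 33.1 and 40.3 (0.29). Of these 15 genes, 8 were below the medians of their GC deciles.

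**Figure D5:**
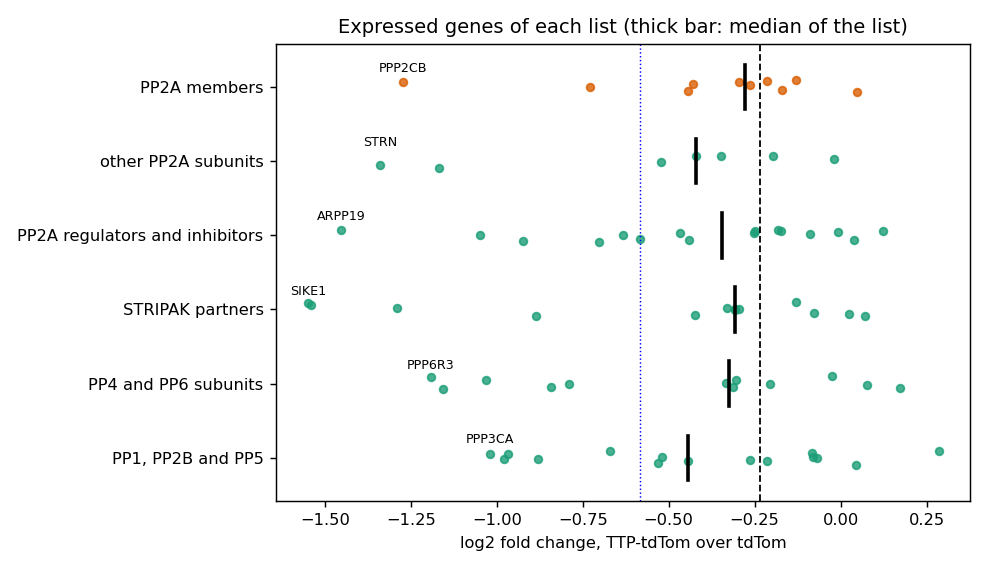
log2 fold change (TTP-tdTom over tdTom) of each expressed gene of the PP2A members and of 5 related lists, with a thick bar at the median of the list, a dashed line at the median of all expressed symbols (-0.23) and a dotted line at 1.5-fold lower. The lowest gene of each list is named. PPP2CB (-1.27) and PPP2R5E (-0.73) are the members past the dotted line, and the other lists hold between 2 and 5 such genes.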

How the data were processed

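The authors sequenced RNA from 3 tdTom and 3 TTP-tdTom samples. Strand-specific libraries were read as 75-base pairs and aligned to Hs37D5 (GRCh37 with decoy), and transcripts were compared with Cufflinks; the submitters' processing notes name TopHat2 2.0.13 and Cufflinks 2.2.1. The table that the authors deposited gives FPKM, with 1 value per group, at each of 406165 loci, 30202 of them with a gene symbol, so it shows neither the depth of each library nor the replicate spread. Its columns for the authors' comparison (fold change, test statistic, p and q) were not used.

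For each symbol the locus with the most RefSeq names, then the highest summed FPKM, was taken. Starts are counted from 1. Fold changes are log2 ratios of the deposited FPKM values with no pseudocount. A gene was called lower or higher past 1.5-fold, with no test. Named genes were all members and, in each list, the gene with the highest tdTom level, the lowest and the highest fold change and the smallest difference, and genes named outside this rule are marked. The members and lists were chosen with earlier results of these data known. 3′UTRs were matched by name to GENCODE release 29 for 91.1% of expressed symbols. The functions were tested on simulated data. Alternatives were pseudocounts, scalings, locus choice, fold thresholds and filters. Python 3.11.15, numpy 2.4.6, pandas 2.3.3 and matplotlib 3.10.9 were used.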

Additional observations from a re-analysis of the deposited data

How the results depend on the processing

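No paired analysis was possible because the table holds 1 value per group, and for the same reason the planned fits that leave out each replicate were not run. The number of members lower by at least 1.5-fold, 2, was 1 after centring on the median of expressed symbols, 4 at a threshold of 0.32 on the log2 scale (which 40.4% of all expressed symbols passed) and 1 at a threshold of 2-fold. The members' median of -0.28 was -0.26 with a pseudocount of 1, -0.044 after centring, -0.23 after rescaling to the same FPKM sum over loci with a symbol and -0.31 with all loci of a symbol summed. Centring moved every log2 fold change up by 0.23 and turned 3 members from below to above 0. No other alternative changed a sign. PPP2CB stayed between -1.27 and -1.04 under all of them. With loci summed, the share of PPP2R5E was 52.4% in tdTom cells and 43.1% in TTP-tdTom cells. Centred, the list medians were -0.19 (further subunits), -0.11 (regulators), -0.072 (STRIPAK), -0.089 (PP4 and PP6) and -0.21 (PP1, PP2B and PP5), and the genes past 1.5-fold numbered 3 for regulators, 4 for STRIPAK, 4 for PP4 and PP6, 4 for PP1, PP2B and PP5 and 2 for further subunits, where 13.6% of all expressed symbols were past it. With an FPKM of at least 5 the medians were -0.35 for further subunits, -0.38 for STRIPAK and -0.48 for PP1, PP2B and PP5. At 2-fold, which 8.65% of all expressed symbols passed, the count was 2 for regulators, 3 for STRIPAK, 3 for PP4 and PP6, 1 for PP1, PP2B and PP5 and 2 for further subunits. The table does not give the depth behind each FPKM, so no interval is given.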
